A study of Mus musculus with 8 samples.

Results

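The 9 genes studied here are genes of antigen presentation and of the interferon response in mouse retina: B2m, H2-K1, H2-D1, Tap1, Psmb8, Psmb9, Stat2, Irf9 and Ifit3. They were chosen by gene symbol, and all 9 were among the 26824 genes of the count table and passed the filter on low counts, which kept 20167 genes. The libraries came from retinas of mice aged 1 month, with 2 retinas pooled in each. There were 3 libraries labelled WT (WT 1 to WT 3) and 5 labelled Kv8.2 KO (KO 2 to KO 6), for knockout of Kcnv2, the gene for a silent potassium channel subunit of photoreceptors. Both groups were untreated, and strain, sex and the knockout allele are not stated in the labels. The series text says that 2 KO samples were left out by the authors and does not name them, so all 8 libraries were compared, with fits lacking 1 library, all 10 choices of 3 KO libraries, and KO 2 with KO 3 as alternatives.

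Class I molecules of the major histocompatibility complex show peptides from inside a cell to cytotoxic T cells. A heavy chain, such as the products of H2-K1 and H2-D1, pairs with beta-2 microglobulin, the product of B2m. The peptide it holds is cut by the proteasome, where Psmb8 and Psmb9 encode interferon-induced catalytic subunits, and enters the endoplasmic reticulum through a transporter of which Tap1 encodes one chain. Type I interferons signal through a complex that holds STAT2 and IRF9 and binds the interferon-stimulated response element, which switches on genes such as Ifit3, an antiviral gene. Neurons of the central nervous system, retina included, are known for low class I expression at rest.

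Some libraries stood apart for reasons not in the labels. KO 4, KO 5 and KO 6 stood apart on the first principal component of all genes (scores 45.7 to 58.1, against -40.2 to -11.9 in the other 5 libraries). Mitochondrial genes took 3.03% to 3.70% of counts in these 3, 5.23% and 6.52% in KO 3 and KO 2, and 7.09% to 7.92% in WT. This set holds no WT library, so what sets it apart and the label cannot be told apart in it, and KO 2 and KO 3 against WT are given beside the full comparison. Lens genes took 5.02% of the counts of KO 3 and at most 0.171% elsewhere. WT 3 had 9 counts of Xist and 2132 of Ddx3y, and the other 7 libraries had at least 30144 and at most 3. Kcnv2 was present in every library, at 519 to 551 CPM in WT and 398 to 585 CPM in the libraries labelled KO, so its level does not separate the groups, and the groups are called by their labels.

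The promoters of 3 of the 9 genes hold the core letters of the interferon-stimulated response element, and are shown because it is the known binding site of the complex that holds STAT2 and IRF9. A match is a description of letters, not of binding. The letters GAAA, any 2 bases and GAAA again, in a row, were searched on both strands in the 250 bases before each start site in the RefSeq annotation of GRCm38.p6, where all 9 genes had an entry. They were found for B2m, Stat2 and Ifit3, with 2 matches in Ifit3, against 3.46% of the 27018 annotated genes with a promoter sequence and 2.98% of 32841 promoters. Among the 63 other interferon-induced genes with an entry 29 held a match (46%). The matches lay 130 bases before the start site in B2m, 213 in Stat2, and 113 and 147 in Ifit3. Capitals mark them, on the strand of the gene.
B2m (chr2:122147437-122147686, plus strand): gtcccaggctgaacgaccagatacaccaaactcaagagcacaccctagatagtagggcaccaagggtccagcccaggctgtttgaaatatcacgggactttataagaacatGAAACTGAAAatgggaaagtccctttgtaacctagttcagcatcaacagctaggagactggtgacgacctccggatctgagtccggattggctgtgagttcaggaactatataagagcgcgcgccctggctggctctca
Stat2 (chr10:128270248-128270497, plus strand): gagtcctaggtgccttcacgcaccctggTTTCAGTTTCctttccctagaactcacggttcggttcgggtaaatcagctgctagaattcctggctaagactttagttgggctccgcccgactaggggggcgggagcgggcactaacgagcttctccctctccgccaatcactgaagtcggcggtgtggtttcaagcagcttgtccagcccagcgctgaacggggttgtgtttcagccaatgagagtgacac
Ifit3 (chr19:34583279-34583528, plus strand): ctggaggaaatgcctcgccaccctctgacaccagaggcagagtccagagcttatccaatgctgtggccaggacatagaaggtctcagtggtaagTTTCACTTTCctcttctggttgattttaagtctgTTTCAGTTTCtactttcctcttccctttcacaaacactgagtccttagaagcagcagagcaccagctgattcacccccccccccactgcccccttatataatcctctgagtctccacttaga

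The windows of H2-K1 and H2-D1 held no such match, but resemble each other, and are shown because both genes rose together. Only the exact letters were searched, so a window without a match may still hold a near spelling of the element. Both windows hold the letters agtttcacttctgc just after the run in capitals, which the search does not count. Their longest identical run, in capitals, was 47 bases long. It ended 108 bases before the start site of H2-K1 whose window is shown and 154 before that of H2-D1. The annotation holds another start site of H2-K1 (window chr17:34000348-34000597), which lies nearer to the run. The windows of Tap1 and Psmb9, which are transcribed away from each other on chromosome 17, overlapped by 225 bases.
H2-K1 (chr17:34000334-34000583, minus strand): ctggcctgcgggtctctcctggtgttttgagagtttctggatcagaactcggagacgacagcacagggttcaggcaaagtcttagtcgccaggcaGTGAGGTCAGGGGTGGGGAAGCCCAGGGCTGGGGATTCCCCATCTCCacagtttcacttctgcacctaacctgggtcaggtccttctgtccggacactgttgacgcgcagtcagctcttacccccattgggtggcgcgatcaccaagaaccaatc
H2-D1 (chr17:35262844-35263093, plus strand): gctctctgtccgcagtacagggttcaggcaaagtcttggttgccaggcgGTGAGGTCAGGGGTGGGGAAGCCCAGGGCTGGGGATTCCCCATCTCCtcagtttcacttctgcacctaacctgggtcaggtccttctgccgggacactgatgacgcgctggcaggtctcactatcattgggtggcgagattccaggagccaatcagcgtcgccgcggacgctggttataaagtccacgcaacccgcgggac

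All 9 genes were higher on average in the libraries labelled KO, and 3 of them passed the test. H2-K1, H2-D1 and Tap1 rose about alike, by 2.07-, 1.99- and 2.15-fold. The test was edgeR's quasi-likelihood test, and a gene was called at a Benjamini-Hochberg adjusted p-value under 0.05 over all tested genes. By it 7.58% of tested genes were called, 4.74% higher and 2.84% lower. Of these calls 62.5% were higher, against 41.8% with library size alone as the scaling, where the 9 genes were still higher and 3 of them passed. At an unadjusted p-value under 0.05 all 9 genes were higher, as were 15.1% of tested genes. In 5 of the 9 (H2-K1, H2-D1, Tap1, Stat2 and Ifit3) every library labelled KO lay above every WT library, as it did in 10.8% of tested genes, and in 10.1% every one lay below. Levels are counts for each 1000000 counts of a library (CPM) after TMM scaling.

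**Figure D1:**
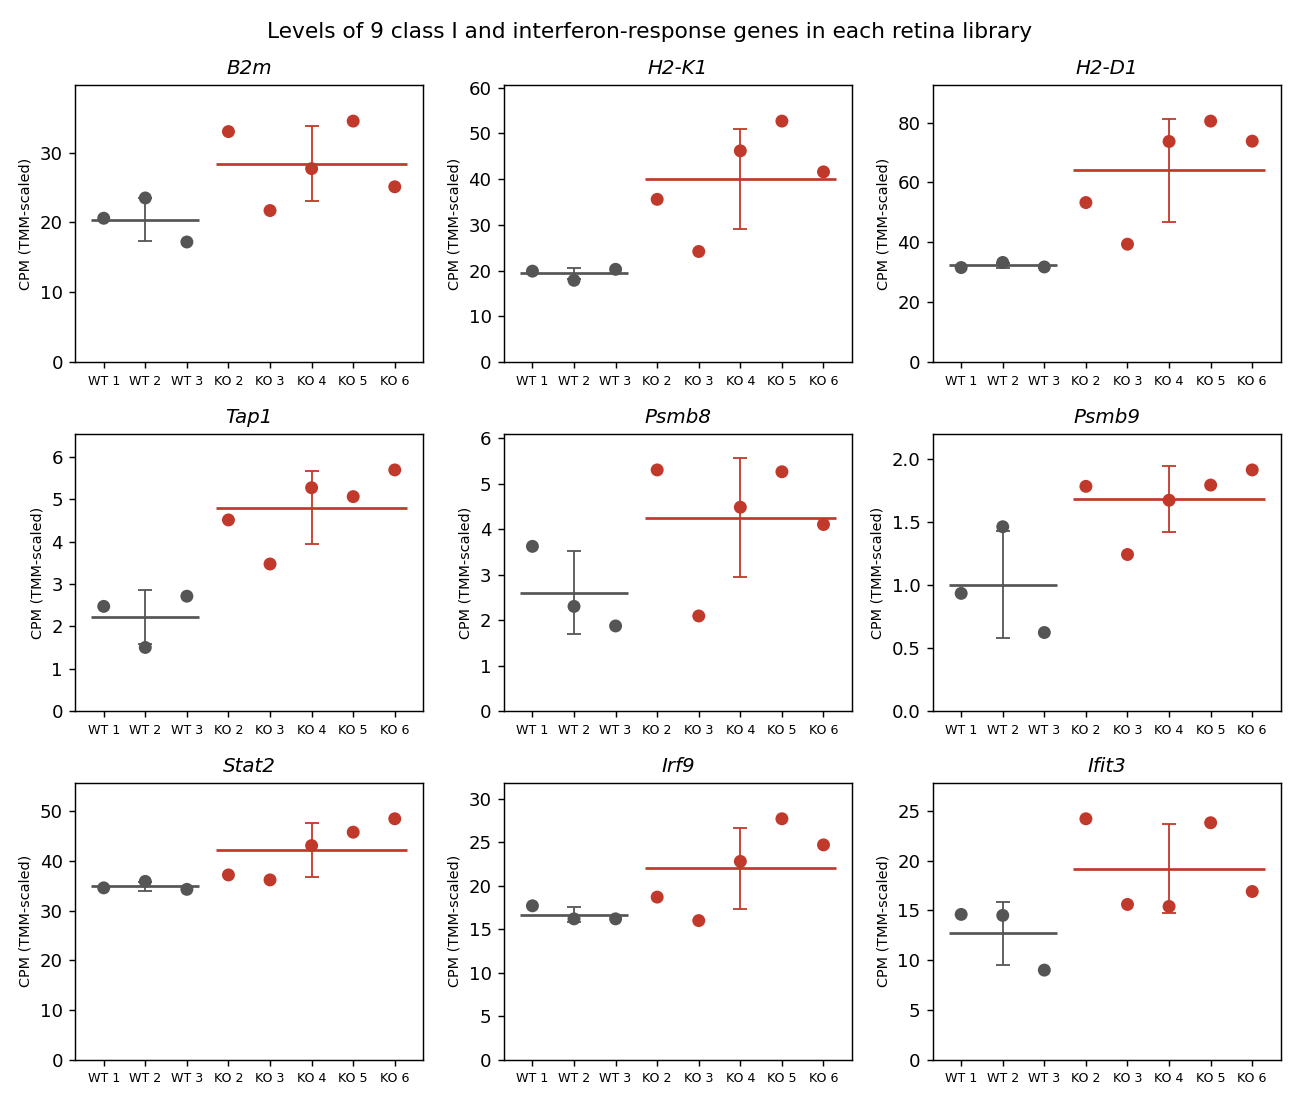
Level of each of the 9 genes, in TMM-scaled CPM on a linear axis from 0, in the 3 WT libraries (grey) and the 5 libraries labelled KO (red). Horizontal lines are group means and whiskers are SDs. H2-K1, H2-D1 and Tap1 lie higher in all 5 red points than in any grey point, while KO 3 is the lowest red point in 8 of the 9 panels.

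The heavy chain gene H2-K1 (ENSMUSG00000061232, chr17:33996017-34000347 in GRCm38) was at 19.9, 17.9 and 20.3 CPM in WT 1 to WT 3. It was at 35.6, 24.2, 46.2, 52.7 and 41.6 CPM in KO 2 to KO 6. The WT libraries lay close together and below all others, and KO 3 was nearest to them. Means were 19.4 ± 1.29 (SD, n = 3) for WT against 40.1 ± 10.9 (SD, n = 5) for KO libraries. This is a log2 fold change of 1.05 (SE 0.21; adjusted p-value 0.0237 by edgeR).

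H2-D1 (ENSMUSG00000073411, chr17:35262730-35267499), another classical heavy chain gene, was at 31.6, 33.3 and 31.8 CPM in WT 1 to WT 3 and at 53.3, 39.4, 73.7, 80.5 and 73.8 CPM in KO 2 to KO 6. Again the groups did not overlap and KO 3 was the lowest library labelled KO. The rise came to 0.99 on the log2 scale (SE 0.21; adjusted p-value 0.0251 by edgeR). Heavy chain genes are alike in sequence: 22.8% of the 31-base words of H2-K1 and 26.9% of those of H2-D1 occur in another gene, so their counts may be split between copies. With both genes summed the log2 fold change was 1.01 (edgeR adjusted p-value 0.0230), and with all 15 heavy chain genes of the table summed it was 0.75 (0.0307), from 91.4 to 96.5 CPM in WT to 108 to 194 CPM in the libraries labelled KO.

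B2m (ENSMUSG00000060802, chr2:122147686-122153083), the partner of every class I heavy chain, was at 20.6, 23.5 and 17.2 CPM in WT 1 to WT 3. It was at 33.0, 21.7, 27.7, 34.5 and 25.1 CPM in KO 2 to KO 6. KO 3 lay below WT 2, so the groups overlapped. The log2 fold change was 0.48 (SE 0.17) and did not pass, with an edgeR adjusted p-value of 0.0988. B2m shares no 31-base word with another gene.

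Tap1 (ENSMUSG00000037321, chr17:34187553-34197225), the peptide transporter chain, had the highest fold change of the 9 genes on few counts, 32 to 61 in WT and 73 to 125 in the libraries labelled KO. It was at 2.47, 1.5 and 2.71 CPM in WT 1 to WT 3 and at 4.51, 3.47, 5.27, 5.06 and 5.69 CPM in KO 2 to KO 6. The groups did not overlap. The rise came to 1.11 on the log2 scale (SE 0.24; adjusted p-value 0.0280 by edgeR).

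The immunoproteasome genes Psmb8 and Psmb9 were scattered between WT libraries, with an SD of 35.1% and 42.3% of the mean. Psmb8 (ENSMUSG00000024338, chr17:34197721-34201454) was at 3.62, 2.3 and 1.87 CPM in WT and at 5.30, 2.09, 4.48, 5.26 and 4.10 CPM in KO 2 to KO 6. Only KO 3 fell among the WT values, and the log2 fold change of 0.72 (SE 0.32) did not pass (edgeR adjusted p-value 0.180). Psmb9 (ENSMUSG00000096727, chr17:34181987-34187764) was at 0.932, 1.46 and 0.622 CPM in WT and at 1.78, 1.24, 1.67, 1.79 and 1.91 CPM in KO 2 to KO 6. It rests on 14 to 42 counts, KO 3 lay below WT 2, and the log2 fold change of 0.74 (SE 0.31) did not pass (edgeR adjusted p-value 0.152). Its gene model overlaps that of Tap1 on the other strand, and counting by strand is not given in the sources used here.

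Immunoproteasome subunits replace constitutive ones, so each was also set against the subunit it replaces, as a log2 ratio within each library. Psmb10 to Psmb7 was -3.53, -4.17 and -4.25 in WT 1 to WT 3 and -3.51, -3.52, -2.97, -2.83 and -2.84 in KO 2 to KO 6. All 5 libraries labelled KO lay above WT, but KO 2 and KO 3 by little over WT 1. The difference in means was 0.85, with an exact permutation p-value of 0.0357, two-sided, the smallest that 3 against 5 libraries allow, and 0.107 after Benjamini-Hochberg adjustment over the 3 ratios. Psmb8 to Psmb5 differed by 0.50 (exact permutation p-value 0.321, adjusted 0.321) and Psmb9 to Psmb6 by 0.54 (exact permutation p-value 0.107, adjusted 0.161), with overlapping groups. None of the 3 ratios passed adjustment. In KO 2 and KO 3 against WT the differences were 0.47, 0.49 and 0.61 in this order. Counts of Psmb5 may be split between copies, as 71.7% of its 31-base words occur in another gene.

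Stat2 (ENSMUSG00000040033, chr10:128270559-128292849), a transcription factor activated by type I interferon receptors, was at 34.6, 35.9 and 34.3 CPM in WT. It was at 37.2, 36.2, 43.1, 45.8 and 48.5 CPM in KO 2 to KO 6. The groups did not overlap, yet KO 3 was just above WT 2, and the log2 fold change of 0.27 (SE 0.11) did not pass (edgeR adjusted p-value 0.144). Irf9 (ENSMUSG00000002325, chr14:55603571-55610030), which gives the complex with STAT2 its DNA contacts, was at 17.7, 16.2 and 16.2 CPM in WT and at 18.7, 16, 22.8, 27.7 and 24.7 CPM in KO 2 to KO 6. KO 3 was below every WT library, and the log2 fold change of 0.40 (SE 0.17) did not pass (edgeR adjusted p-value 0.164).

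Ifit3 (ENSMUSG00000074896, chr19:34583531-34588731), an interferon-induced antiviral gene, was at 14.6, 14.5 and 9.01 CPM in WT. It was at 24.2, 15.6, 15.4, 23.8 and 16.9 CPM in KO 2 to KO 6. The groups did not overlap, but 3 of the libraries labelled KO lay close to WT 1. Its log2 fold change of 0.60 (SE 0.22) did not pass (edgeR adjusted p-value 0.109). Of its 31-base words 61.8% also occur in Ifit3b, which was at 7.33 CPM in WT and 9.11 CPM in the libraries labelled KO on average, and the 2 genes summed gave a log2 fold change of 0.50 (edgeR adjusted p-value 0.138).

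Levels can be compared between genes per length, here as CPM for each kilobase of the longest coding transcript in GENCODE M21. In WT the order was B2m (23.7 ± 3.63), H2-D1 (15.4 ± 0.443), H2-K1 (12.0 ± 0.798), Stat2 (7.95 ± 0.190), Ifit3 (7.27 ± 1.83), Irf9 (5.64 ± 0.296), Psmb8 (1.59 ± 0.560), Tap1 (0.754 ± 0.216) and Psmb9 (0.742 ± 0.313), each SD over 3 libraries. Ifit3 did not differ from Stat2 or Irf9 beyond its spread, nor Tap1 from Psmb9. In the libraries labelled KO, H2-D1 (30.5 ± 8.18) lay within 1 SD of both B2m (33.0 ± 6.21) and H2-K1 (24.8 ± 6.71), while B2m and H2-K1 were more than 1 SD apart (SD, n = 5).

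The libraries labelled KO differed among themselves more than the WT libraries did in some genes and less in others. The SD was 27.2% of the mean for H2-K1 and 26.8% for H2-D1 in the libraries labelled KO, against 6.65% and 2.88% in WT. For Psmb9 it was 15.5% against 42.3%. KO 3 was the lowest library labelled KO in 8 of the 9 genes, and 5 of the 9 were above every WT library there, while in each of KO 2, KO 4, KO 5 and KO 6 all 9 were. The median over the 9 genes of the fold over the WT mean was 1.22 in KO 3, 1.78 in KO 2, 1.67 in KO 4, 1.87 in KO 5 and 1.58 in KO 6. Across the 8 libraries, which share the split between groups, Pearson's r of log2 CPM between pairs of the 9 genes was 0.50 to 0.99 (median 0.78, 36 pairs). It was highest between H2-K1 and H2-D1 and lowest between Stat2 and Ifit3.

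The comparison was split by libraries. For KO 2 and KO 3 against WT the log2 fold change was 0.63 (SE 0.16) for H2-K1, 0.52 (SE 0.13) for H2-D1 and 0.84 (SE 0.30) for Tap1. For KO 4, KO 5 and KO 6 against WT it was 1.28 (SE 0.09), 1.25 (SE 0.07) and 1.27 (SE 0.22). Stat2 and Irf9 were near 0 in the first fit (0.07 and 0.06) and at 0.40 and 0.60 in the second. B2m (0.42 and 0.52) and Ifit3 (0.65 and 0.57) were about as large in both. The difference between the fits, which share the WT libraries, was not tested.

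In KO 2 and KO 3 against WT, 0 of the 9 genes passed edgeR's test, where 0.624% of tested genes were higher, and 4 of the 9 were higher at an unadjusted p-value under 0.05, where 10.1% of tested genes were. EdgeR adjusted p-values ranged from 0.108 (H2-D1) to 0.842 (Irf9). In KO 4, KO 5 and KO 6 against WT, 8 of the 9 passed and Psmb9 did not (edgeR adjusted p-value 0.0598), but 22.3% of all tested genes were called higher there and 42.8% in either direction. With all libraries but one, the count of the 9 genes that passed was 0 without WT 1, WT 2, WT 3 or KO 4, 1 (H2-K1) without KO 5 or KO 6, 3 without KO 2 and 7 without KO 3. All 9 kept the direction in every one of these fits. The log2 fold change in them was 0.93 to 1.19 for H2-K1 (edgeR adjusted p-values 0.000969 to 0.120), 0.90 to 1.13 for H2-D1 (0.00113 to 0.114) and 0.90 to 1.28 for Tap1 (0.00639 to 0.127).

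**Figure D2:**
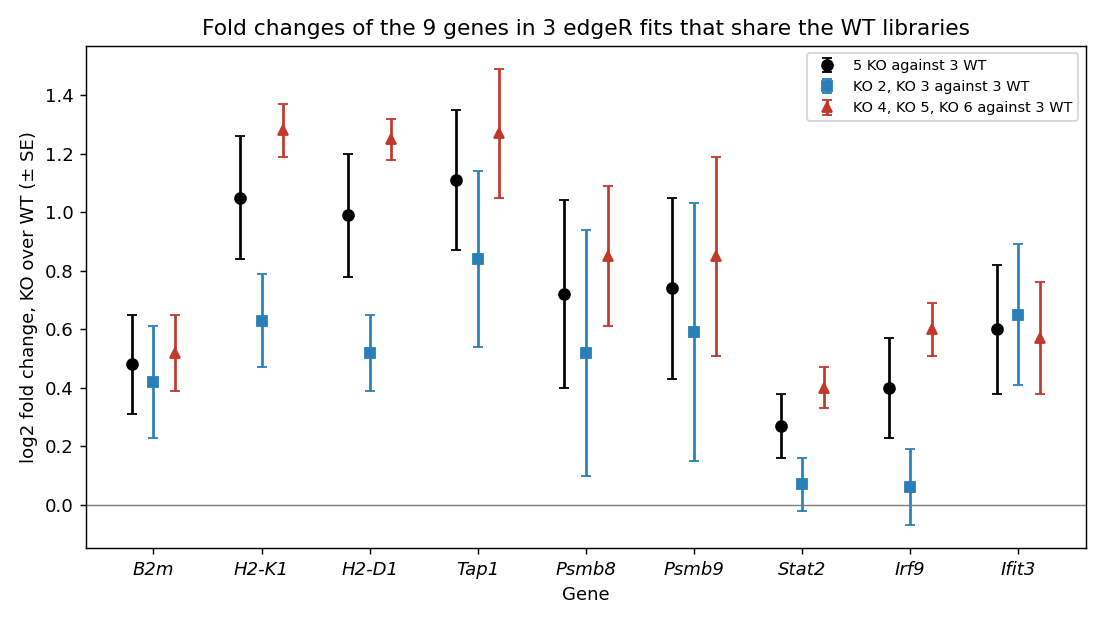
Log2 fold change of the 9 genes over WT, with SE as whiskers, from edgeR fits of all 5 libraries labelled KO (black circles), of KO 2 and KO 3 (blue squares) and of KO 4 to KO 6 (red triangles). The same 3 WT libraries enter each fit. H2-K1, H2-D1, Stat2 and Irf9 are lower in blue than in red, while B2m and Ifit3 lie within each other's SE in blue and red.

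GC content and fold change moved together over all genes (Spearman's rho of 0.446 over 18028 genes, not independent replicates), with a rho of 0.515 when only KO 4, KO 5 and KO 6 entered and of 0.172 when only KO 2 and KO 3 did. Transcripts of Tap1, H2-K1 and H2-D1 had 56%, 55.8% and 52.7% GC, above the median of 50.1% over tested genes, and B2m had 41.2%. With each library corrected for GC content by an offset, the log2 fold change was 0.86 for H2-K1, 0.88 for H2-D1 and 0.92 for Tap1 and 0.78 for B2m. All 4 passed (edgeR adjusted p-values 0.0214, 0.0239, 0.0360 and 0.0432), B2m among them. Stat2 was at 0.15 and Irf9 at 0.33 under this correction, Psmb8 at 0.57, Psmb9 at 0.59 and Ifit3 at 0.66, and none of these 5 passed.

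Around these 9 genes, 149 other genes of class I and class II presentation, the proteasome and the interferon pathway were tested, and 15 were higher and 1 lower, where 4.74% of all tested genes were higher and 2.84% lower. The lists were chosen with earlier results of these data known. Their median log2 fold change was 0.26, and over all tested genes it was 0.00. In KO 2 and KO 3 against WT 1 of the 149 was called higher and 0 lower, where 0.624% of all tested genes were called higher and 0.267% lower. In KO 4, KO 5 and KO 6 against WT 56 were called higher and 16 lower. There 22.3% of all tested genes were called higher and 20.5% lower. H2-Q4, Tap2, Tapbp, Irf2bp1 and Psma4 each passed in 2 of the 8 fits without a library. With library size alone as the scaling, Tapbp and Gbp3 did not pass (edgeR adjusted p-values 0.0523 and 0.0625).

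In class I presentation, 2 peptide loading genes and 1 heavy chain gene also rose. Tap2, the second chain of the peptide transporter, rose from 6.39 ± 0.307 to 12.2 ± 3.08 CPM (log2 fold change 0.94, edgeR adjusted p-value 0.0318). Tapbp, which encodes tapasin, the bridge between transporter and heavy chain, rose from 45.5 ± 3.32 to 75.6 ± 16.6 CPM (log2 fold change 0.73, edgeR adjusted p-value 0.0330). These were 2 of 11 tested loading and supply genes outside the 9, beside 4.74% of all tested genes. All 11 had a positive log2 fold change, as did 10100 of all 20167 tested genes, and their median was 0.23. DESeq2 called 4 of the 11 higher, beside 1984 of 26824 genes, and limma voom 6, beside 4084 of 20167 genes. KO 2 and KO 3 had low quality weights in limma voom (0.213 and 0.272, against 1.18 to 2.28 elsewhere). The limma voom counts, here and in later lists, thus rest mostly on the other libraries. Psmb10 (0.74, adjusted p-value 0.0546) and the class I transactivator gene Nlrc5 (1.00, adjusted p-value 0.104) did not pass edgeR's test. Of the 10 other heavy chain genes tested, H2-Q4 rose (log2 fold change 0.89, edgeR adjusted p-value 0.0243), though 53.0% of its 31-base words occur in other genes. H2-T23 did not pass, at a log2 fold change of 0.76 (edgeR adjusted p-value 0.0624).

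None of 7 tested class II genes passed edgeR's test. At an unadjusted p-value under 0.05 there were 0, beside 15.1% of all tested genes higher and 12.2% lower. DESeq2 and limma voom called 0, beside 3066 of 26824 and 8248 of 20167 genes. The median log2 fold change was -0.08, and Cd74, the invariant chain gene, was at -0.38. Of 16 tested constitutive proteasome genes, 1 was lower, beside 2.84% of all tested genes. Psma4 fell by 0.36 on the log2 scale (edgeR adjusted p-value 0.0440), which did not pass with no filter on low counts (0.0642). The median over the 16 was -0.13. DESeq2 called 4 of the 16 lower, beside 1082 of 26824 genes. By limma voom 3 were higher and 7 lower, beside 4084 higher and 4164 lower of 20167 genes.

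None of the 8 tested receptor and kinase genes passed edgeR's test. At an unadjusted p-value under 0.05 there was 1, beside 15.1% of all tested genes higher and 12.2% lower. DESeq2 called 1 and limma voom 2, beside 3066 of 26824 and 8248 of 20167 genes. The receptor gene Ifnar1 was at a log2 fold change of 0.17 and the kinase gene Tyk2 at 0.52 (edgeR adjusted p-values 0.244 and 0.0752). The interferon ligand genes were not tested: 1 of the 21 listed, Ifnz, was in the table, at no more than 5 counts in a library.

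Interferon-induced genes beside Ifit3 rose in part. Of 71 tested, 10 were higher and 0 lower, beside 4.74% and 2.84% of all tested genes. Their log2 fold changes had a median of 0.39, and 58 were positive. In KO 2 and KO 3 against WT 0 of the 71 passed edgeR's test, where 0.624% of all tested genes were called higher and 0.267% lower. At an unadjusted p-value under 0.05 there, 17 were higher and 0 lower, beside 10.1% and 8.82% of all tested genes. In KO 4, KO 5 and KO 6 against WT, 30 were called higher and 6 lower at an adjusted p-value under 0.05. The shares of all tested genes called so were 22.3% and 20.5%. Over all libraries limma voom called 27 higher and 5 lower, and 8248 of all 20167 genes. DESeq2 called 18 higher and 1 lower, and 3066 of all 26824 genes. Of the 10 genes, 8 passed in 2 of the 8 fits without a library, Ifit1 in 3 and Parp14 in 6. Among the 10 that passed, the largest log2 fold change was that of Bst2, which encodes the virus-tethering protein tetherin, from 2.38 ± 0.850 to 7.82 ± 2.93 CPM (log2 fold change 1.72, edgeR adjusted p-value 0.0276). It was at 3.34, 2.07 and 1.73 CPM in WT, 6.38 and 3.38 CPM in KO 2 and KO 3, and 9.29 to 10.6 CPM in KO 4 to KO 6. Ifit1, of the same gene family as Ifit3, was highest in KO 2 at 11.6 CPM, at 5.06 to 6.70 CPM in KO 3 to KO 6 and at 2.49 to 3.67 CPM in WT (log2 fold change 1.17, edgeR adjusted p-value 0.0373).

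The others that rose were Lgals3bp (log2 fold change 1.17), Parp14 (1.11), Gbp2 (1.1), Oasl2 (1.06), Gbp3 (0.90), Ube2l6 (0.80), Dtx3l (0.77) and Pml (0.65), with edgeR adjusted p-values from 0.0172 to 0.0420. In Oasl2 the groups overlapped. Gbp2 and Gbp3 encode guanylate-binding proteins, Oasl2 an oligoadenylate synthetase-like protein, and Parp14 an ADP-ribosyltransferase. Cxcl10, a chemokine gene, had a larger log2 fold change than Bst2, 2.49, on at most 16 counts in a library, and did not pass (edgeR adjusted p-value 0.0652). WT libraries were at 0 to 0.188 CPM, so this gene met the count filter only through libraries labelled KO. Its groups did not overlap, beside 10.8% of tested genes with every library labelled KO above WT. Neither its size nor this lack of overlap is read as a result. Several widely used interferon-response genes did not pass edgeR's test: Isg15 was at a log2 fold change of 0.73 (adjusted p-value 0.166), Usp18 at 1.14 (0.0899), Irf7 at 0.32 (0.113), Rsad2 at 0.37 (0.486) and Ifit2 at 0.09 (0.775). Mx1 had at most 5 counts in a library and was not tested. Among interferon-induced genes with a promoter entry, 4 of 27 with the element's letters passed and 5 of 30 without, with median log2 fold changes of 0.49 and 0.36.

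In the feedback list, Irf2bp1, which encodes a corepressor that binds IRF2, rose by a log2 fold change of 0.60 (edgeR adjusted p-value 0.0326), 1 of 8 tested, beside 4.74% of all tested genes. DESeq2 called 2 of the 8 higher and 1 lower, beside 1984 higher and 1082 lower of 26824 genes. By limma voom 4 were higher and 1 lower, beside 4084 higher and 4164 lower of 20167 genes. With the GC offset Irf2bp1 was at 0.33 and did not pass (edgeR adjusted p-value 0.114). Of 11 tested sensors of nucleic acids, none passed edgeR's test. At an unadjusted p-value under 0.05 there were 4, beside 15.1% of all tested genes higher and 12.2% lower. DESeq2 called 2 and limma voom 3, beside 3066 of 26824 and 8248 of 20167 genes. Ifih1 was at a log2 fold change of 0.65 (edgeR adjusted p-value 0.0616).

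**Figure D3:**
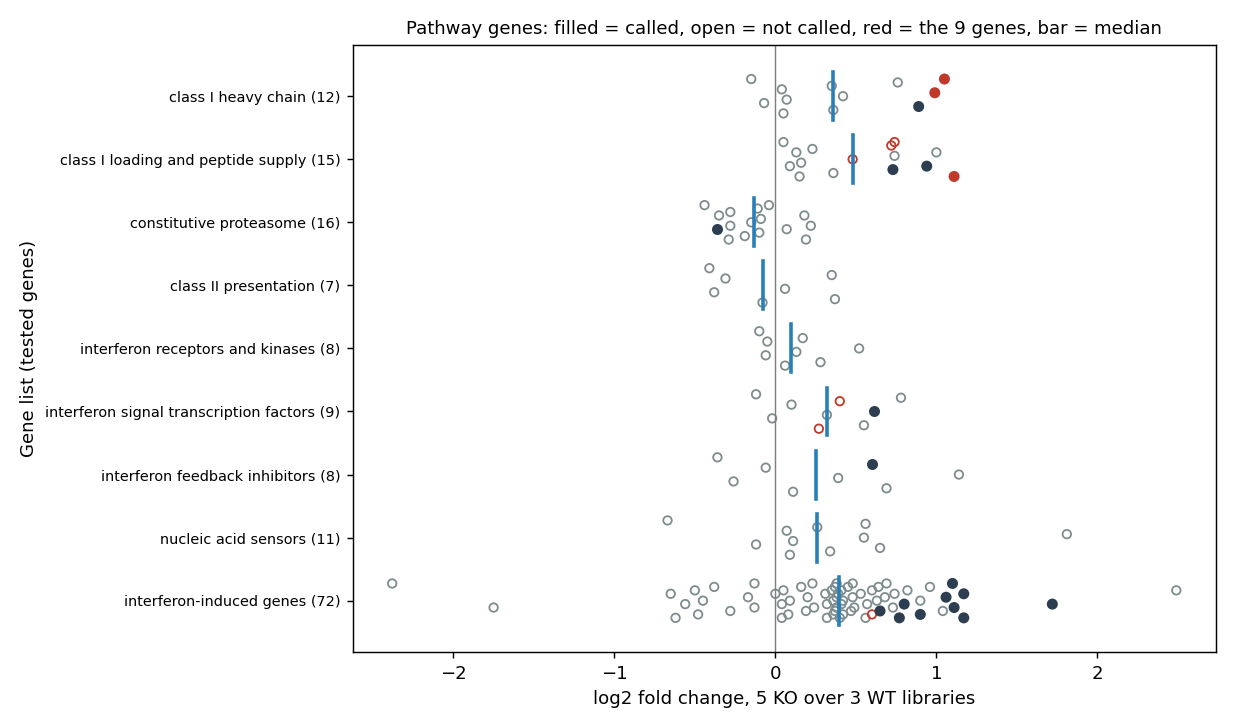
Log2 fold change of each tested gene of the pathway lists, 5 libraries labelled KO over 3 WT libraries, 1 row for each list with the number of tested genes. Filled points passed edgeR's test, open points did not, red points are the 9 genes and blue bars are medians, from 0.48 for class I loading and peptide supply to -0.13 for the constitutive proteasome.

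**Figure D4:**
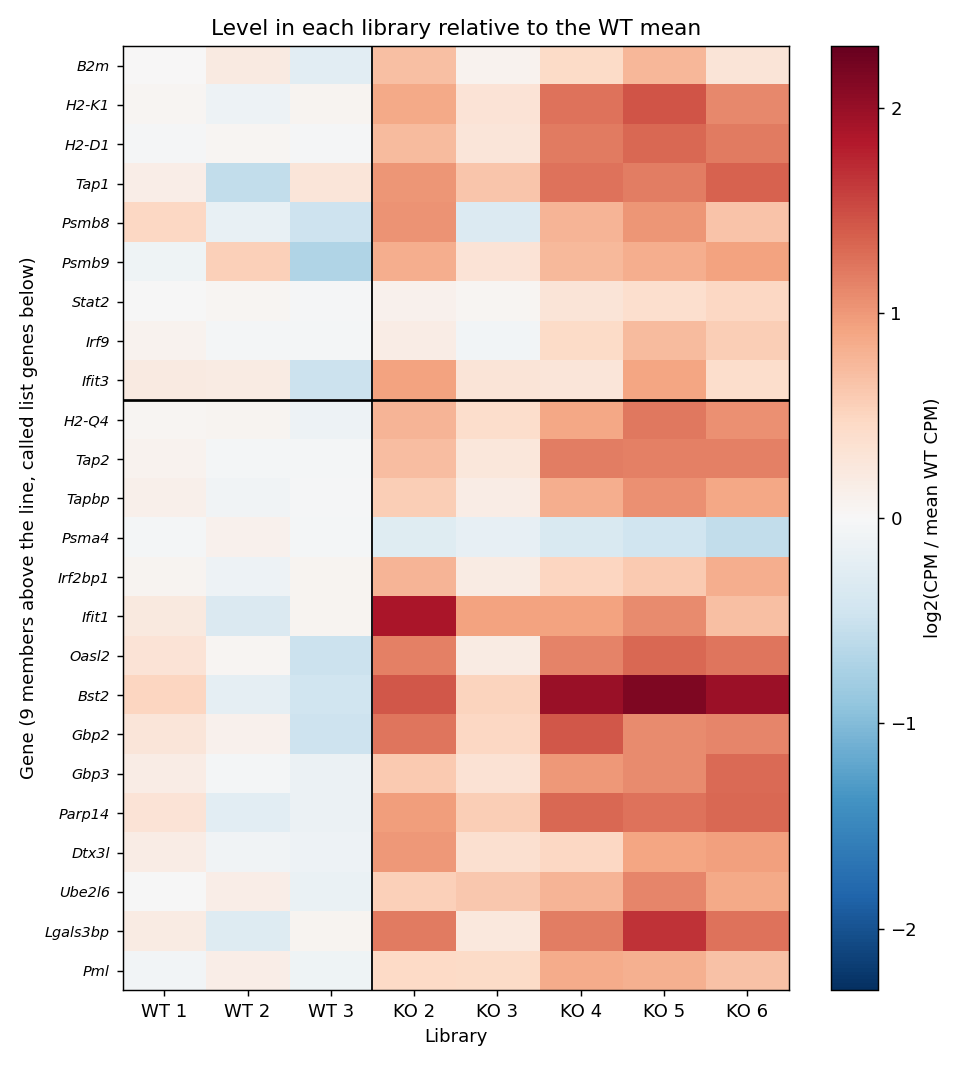
Level in each library over the mean of the WT libraries, as log2 of the CPM ratio in colour, for the 9 genes (above the line) and 15 list genes that passed (below). KO 3 is paler than the other libraries labelled KO in most rows.

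Markers of cells that carry class I and interferon-induced genes were read beside these results. In bulk retina, more cells of a type and more RNA in each cell cannot be told apart. The counts of markers called below stand beside 4.74% of all tested genes called higher. Of 12 microglia and macrophage markers, 2 were higher (Tmem119 and Csf1r) and none lower, and their summed level was 58.5 to 66.7 CPM in WT and 69.8 to 92.7 CPM in the libraries labelled KO, with no overlap. Of 12 endothelium and pericyte markers 3 were higher (Kdr, Vwf and Pdgfrb) and none lower, with sums of 335 to 350 CPM and 424 to 526 CPM. Kdr weighs most in this rise, at 116 CPM on average in WT and 219 CPM in the libraries labelled KO. Of the 12, 10 had a positive log2 fold change, while Egfl7 (-0.31) and Ly6c1 (-0.22) did not. Of 9 Muller glia markers 2 were higher (Sox9 and Kcnj10), with sums of 4540 to 4740 CPM and 4820 to 6910 CPM. Whole retina holds all these cells, and their part in the class I and interferon results was not tested. Of blood and lymphoid markers 0 of 6 tested passed edgeR's test. At an unadjusted p-value under 0.05 there was 1 lower, beside 12.2% of all tested genes. DESeq2 called 1 lower and limma voom 3 lower, beside 1082 of 26824 and 4164 of 20167 genes. Their sums were 35.1 to 70.3 CPM in WT and 22 to 61.9 CPM in the libraries labelled KO. Ly6c2 and S100a8 were at 0 counts in at least 1 library. Rod markers, which define the tissue, summed to 41800 to 61300 CPM in all libraries. Of 10 rod markers 1 was higher, Sag, which encodes the arrestin of rods (log2 fold change 0.87, edgeR adjusted p-value 0.0169, no overlap). Of the 10, 6 had a positive log2 fold change and 4 did not. Pde6a lay above WT in all 5 libraries labelled KO (0.37, edgeR adjusted p-value 0.0689) and Nrl lay below WT in all 5 (-0.26, edgeR adjusted p-value 0.153), and neither passed.

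Outside the lists, the genes whose level followed the 9 most closely over the 8 libraries were named by correlation. The mean of the 9 standardised log2 levels had the highest Pearson correlation, among 14521 genes, with Tmbim6 (r = 0.993), Dnajc11 (0.991), Eno1 (0.989), Aamp (0.988) and Cep131 (0.988). Tmbim6 passed edgeR's test (log2 fold change 0.48, adjusted p-value 0.0430), and the other 4 did not, with log2 fold changes of 0.32 to 0.73. The likeness is a description over 8 libraries that share depth, GC relation and the split between groups.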

How the data were processed

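Total RNA of retina was sequenced in 8 libraries, 3 WT and 5 KO by label. The authors deposited 1 table of estimated counts per gene as whole numbers, not normalized. The submitters' processing notes name Trim Galore, Salmon 1.10.2, DESeq2 and build GRCm38, with no role or order. Annotation and strand are not given in the sources used here. Every gene listed had at least 16 counts in total. Depth was 17759146 to 25188870 counts, and 3 counts are worth 0.119 to 0.169 CPM. Libraries pooled 2 retinas; the labels speak of individual mice. No within-group pair agreed within sampling noise (chi-square per degree of freedom at least 5.85), so each was 1 replicate.

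Counts were filtered by filterByExpr, scaled by TMM and compared with edgeR 4.0.16 (glmQLFit, glmQLFTest; R 4.3.3) over all libraries with no covariate. Each SE is the log2 fold change over the square root of F. Correlations and ratios use log2 CPM with a prior count of 2. Shared 31-base words, GC and length come from GENCODE M21, which held 22121 of 26824 genes by identifier. Permutation tests used scipy 1.17.1. The steps were tested on simulated data.

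Members and lists were chosen with earlier results of these data known. Named genes are the 9, every called list gene but one, which is not reported here, Kcnv2 and the 5 most alike; other list genes named with values were chosen after their values were seen, as were summing Ifit3 with Ifit3b, the crossed block and GC correction within KO 2 and KO 3. Alternatives were DESeq2's size factors and library size alone, DESeq2 1.42.0, limma 3.58.1 (voom, quality weights), other filters, fits without libraries, a replicate block, and a GC offset.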

Additional observations from a re-analysis of the deposited data

How the results depend on the processing

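The 9 genes were higher in the libraries labelled KO in all alternatives run, among them both other scalings. For Stat2 and Irf9 the lowest log2 fold change among the alternatives was 0.01, which is hardly a difference. All alternatives draw on the same 8 libraries. With 3 of the 9, 16 list genes and 1529 genes called in the full comparison, counts moved widely. DESeq2 called 5 of the 9, 37 list genes and 3066 genes, and limma voom with quality weights 9, 64 and 8248. Those weights were 0.213 for KO 2 and 0.272 for KO 3, against 1.18 to 2.28 in every other library. The limma voom counts thus lean towards the fit lacking KO 2 and KO 3, and are not an even view of all 8 libraries. KO 2 and KO 3 against WT gave 0 of the 9, 1 list gene and 180 genes, and with the GC offset 0, 0 and 158. Leaving out each library gave 0 to 7 of the 9, 1 to 44 list genes and 132 to 3992 genes. The cause was not tested. The fits of 3 against 3 gave, in the order of the 9, list genes and all genes: 8, 72 and 8416 (lacking KO 2 and KO 3), 0, 1 and 399 (KO 2 and KO 4), 0, 1 and 496 (KO 2 and KO 5), 0, 4 and 645 (KO 2 and KO 6), 4, 29 and 2540 (KO 3 and KO 4), 3, 24 and 2225 (KO 3 and KO 5), 5, 30 and 2593 (KO 3 and KO 6), 0, 0 and 118 (KO 4 and KO 5), 0, 1 and 191 (KO 4 and KO 6), and 0, 1 and 203 (KO 5 and KO 6). In the edgeR fits above with 0 of the 9 called, 3 to 6 had an unadjusted p-value under 0.05. The share of called genes that were higher was 62.5% with TMM and 41.8% with library size alone, where the median of all genes moved to -0.03.

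Replicate numbers 2 and 3 occur in both groups, with no label that pairs animals by them. Deviations from the group means had a correlation of 0.06 for number 2 and -0.37 for number 3, against 0.23 and 0.06 crossed. With the replicate block, WT 2, WT 3, KO 2 and KO 3 gave 0 of the 9 (5 at an unadjusted p-value under 0.05), 0 list genes and 52 genes, against 0 (4 unadjusted), 0 and 14 with no block, and 1, 5 and 527 with the pairing crossed. The mean paired difference was 0.80, 0.63 and 0.69 for the ratios of Psmb8, Psmb9 and Psmb10.

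Psmb9 (14 to 42 counts) and Tap1 (32 to 125 counts) rest on few counts.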
